A study of Homo sapiens with 12 samples.

Results

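The 40 genes described here encode the working parts of the lysosome: 9 proteases, 10 glycosidases, lipid hydrolases and a hydrolase activator, 9 membrane and lipid transport proteins, 11 subunits of the proton pump V-ATPase (5 of its V0 sector and 6 of its V1 sector), and the transcription factor TFEB. They are a list of named genes and were looked up by Ensembl ID through GENCODE 44 symbols. All 40 of them were found among the 60675 gene IDs of both deposited count tables. The lysosome is the acidic compartment in which cells digest proteins, glycans and lipids delivered by endocytosis and autophagy. The V-ATPase pumps protons into it, membrane glycoproteins such as LAMP1 and LAMP2 line it, and TFEB, with its relatives TFE3 and MITF, switches on many of its genes. In pigment cells the lysosome shares part of its machinery with the melanosome, the organelle that makes melanin, and MITF is the main transcription factor of the melanocyte lineage.

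The cells were A375/211, which is the A375 line overexpressing the microRNA gene MIR211, and its parent A375, an established human melanoma line. Both lines grew in the same medium. The labels give neither the promoter nor the vector of the overexpression, and do not say whether A375/211 is 1 clone, so miR-211 and any other difference between the lines cannot be told apart. Total RNA was sequenced from 2 libraries per line, a and b, but whether these came from separate cultures is not in the labels. The p-values therefore describe variation among these libraries, which may be technical. In BRIC-seq, cells were fed bromouridine (BrU) for 24 h and BrU-containing RNA was recovered after 0, 1, 3 and 6 h of chase, with 1 library per line and time. The later libraries thus hold what remains of the RNA made during labelling.

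The depth of RNA-seq was 34.1 and 30.5 M counts for A375/211, against 20.8 and 28.4 M counts for A375. BRIC-seq libraries held 2.78 to 6.66 M counts in A375/211 and 2.67 to 7.28 M counts in A375, the 0 h libraries being the shallowest of each line. In RNA-seq, MIR211 was counted 36 and 18 times in A375/211, against 0 and 0 times in A375. In BRIC-seq it had 9, 11, 2 and 3 counts over the chase in A375/211 and 0 at all 4 times in A375. The libraries of both assays thus matched their line labels, on few counts at the later times. The chase times cannot be checked this way. The mitochondrial ribosomal RNA MT-RNR2 took 7.38% of the counts at 0 h and 26.4% at 6 h in A375/211, and 7.71% and 26.9% in A375. All 7 melanocyte lineage markers were detected in the RNA-seq of both lines, summing to 289 to 325 CPM in A375/211 and 456 to 460 CPM in A375. These sums depend strongly on MITF, with 38.8 and 49.0 CPM in A375/211 and 253 and 244 CPM in A375. For the 5 markers tested, the log2 difference, A375/211 over A375, ran from -2.499 for MITF to 0.5511 for SOX10, and 1 was above 0. In these bulk samples, fewer cells that express a gene and less of its RNA per cell cannot be told apart.

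Within labelled RNA, lysosomal mRNAs rose together over the chase in both lines. Of the 39 members that could be tested, 33 had a rising mean slope and 0 a falling one (edgeR quasi-likelihood test, adjusted p under 0.05 over all genes). Among all 13703 genes tested, 29.9% were rising and 34.4% were falling. The median slope was 0.37 log2 per hour for the members and -0.04 for all genes. A slope is the change of a transcript's share of the labelled RNA per hour, not an absolute decay rate, since the labelled total itself shrinks during a chase. Its sign therefore depends on the scaling. With glycolytic mRNAs held constant the median of all genes was -0.52 and 0 members rose while 19 fell. Of all genes, 8 then rose and 12098 fell. Counts were also scaled to an extra row of the table named BRIC, which held 3 counts per 0 h library. The median of all genes was then -0.75 and 0 members rose while 34 fell, against 1 rising and 13450 falling among all genes. All 39 lay above the median gene of all genes tested under TMM scaling and under each of these other scalings. A change of scaling shifts the slopes of all genes by nearly the same amount, so this count could hardly change. When both 0 h libraries were left out, 38 lay above the median gene.

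By role, the proteases rose in 9 of 9 cases with a median slope of 0.39 log2 per hour. The glycosidases, lipid hydrolases and activator rose in 9 of 10 cases (median 0.34) and the membrane and lipid transport proteins in 8 of 9 (median 0.46). Of the V-ATPase, 3 of 5 V0 subunits (median 0.26) and 4 of 6 V1 subunits (median 0.23) rose. Differences between these groups were not tested. Each line showed it on its own: 28 members rose and 0 fell in A375/211 (21.9% and 21% of all genes), and 29 rose and 1, ATP6V0D2, fell in A375 (23% and 24.2%). Both counts rested on the 6 h libraries. Without its own 6 h library each line had 0 rising members, and 0 of all genes passed in that line.

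The steepest mean slopes belonged to NPC2, the soluble cholesterol carrier of the lysosome (0.56, SE 0.08), LAPTM4B, a lysosomal membrane protein that binds ceramide and amino acid transporters (0.55, SE 0.15), the aspartic protease CTSD (0.53, SE 0.10), the collagen-degrading protease CTSK (0.51, SE 0.10) and MCOLN1, the lysosomal calcium channel (0.51, SE 0.13). The counts behind CTSD, MCOLN1 and NPC2 were small at 0 h, with 8, 8 and 26 counts in A375/211 and 7, 0 and 7 in A375. CTSK had 20 counts at 0 h in A375/211, and in A375 its 6 counts all came from the 6 h library. PSAP, the precursor of the saposins that present lipids to hydrolases, is a well counted example. Its labelled RNA was 160, 189, 405 and 1307 CPM at 0, 1, 3 and 6 h in A375/211. It was 109, 123, 253 and 761 CPM at the same times in A375. PSAP thus climbed at every step in both lines, with a mean slope of 0.50 (SE 0.03, edgeR quasi-likelihood test, adjusted p = 3.45e-06).

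**Figure D1:**
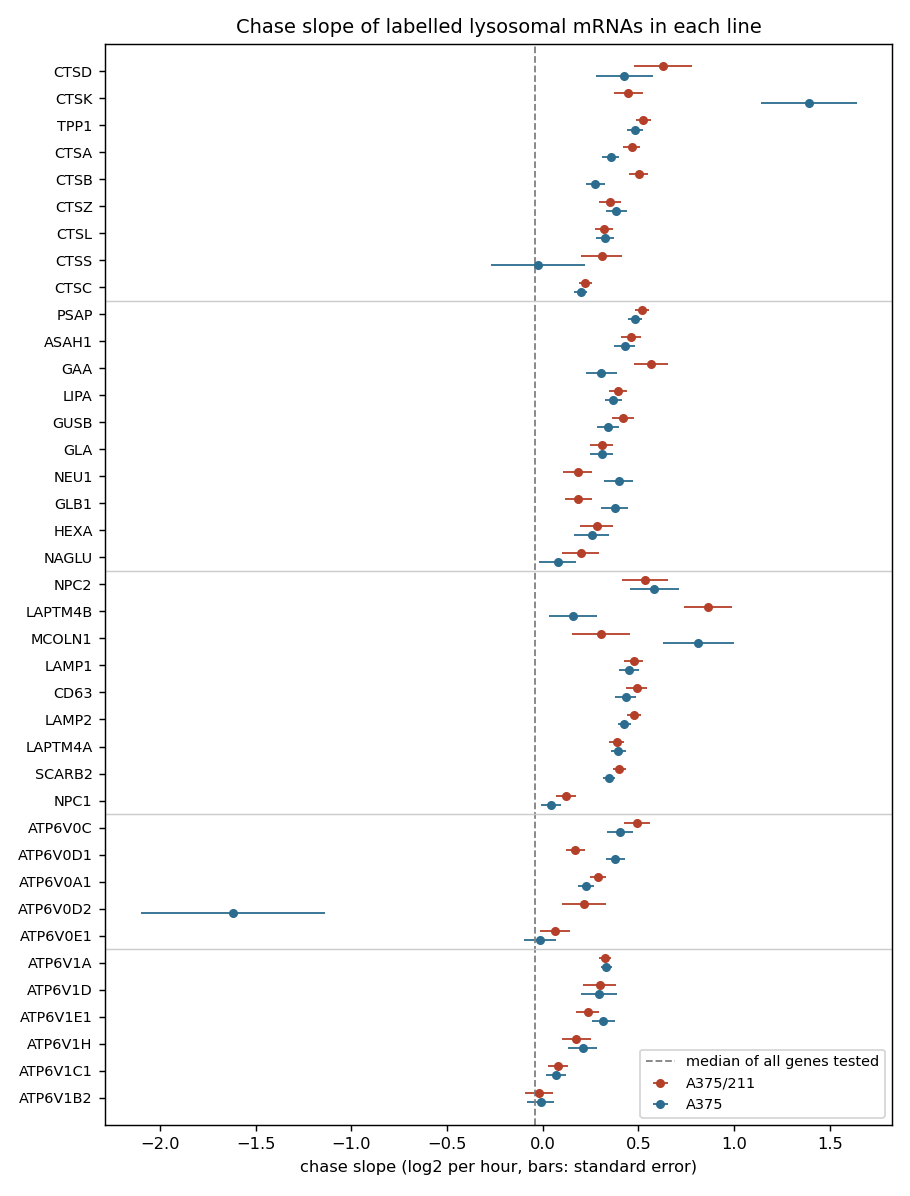
Chase slope (log2 per hour, within TMM-scaled labelled RNA) of the 39 tested members in A375/211 and A375, grouped by role from proteases at the top to V1 subunits at the bottom, with bars for the standard error. Most points lie right of the dashed median of all genes (-0.04), and ATP6V0D2 in A375, which rests on 3 counts, lies far to the left at -1.62.

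At the other end, 6 members did not pass. They were ATP6V1B2, a B subunit of the catalytic V1 head (mean slope -0.01, SE 0.05), the small V0 subunit ATP6V0E1 (0.03, SE 0.06), the V1 stalk subunit ATP6V1C1 (0.08, SE 0.04), the cholesterol exporter NPC1 (0.08, SE 0.04), the V0 subunit ATP6V0D2 (0.12, SE 0.16) and the heparan sulfate hydrolase NAGLU (0.14, SE 0.07). ATP6V1B2 had 68.0, 66.4, 96.0 and 57.8 CPM at 0, 1, 3 and 6 h in A375/211. In A375 it had 49.5, 46.1, 63.5 and 44.2 CPM. It peaked at 3 h in both lines and ended below its 0 h level. NPC1 had 156, 191, 250 and 264 CPM over the chase in A375/211 and 56.5, 76.3, 85.5 and 72.9 CPM in A375, an increase to 3 h in both lines that went no further in A375.

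The rise fell mostly after the first hour. Between 0 and 1 h, 16 of 39 members were higher in both lines and 6 were lower in both (36% and 30.2% of all genes). Between 1 and 3 h, 34 were higher and 0 lower in both lines (40.8% and 39.1% of all genes), and between 3 and 6 h, 33 were higher and 3 lower (38.7% and 41.4%). The 3 that were lower at the last step in both lines were ATP6V0E1, ATP6V1B2 and ATP6V1C1, all V-ATPase subunits. These counts compare single libraries and carry no test.

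The chase slopes of the lines were not shown to differ for any member. By edgeR 0 members and 0% of all genes passed in the slope difference (5 members and 527 of all genes had an unadjusted p under 0.05), and DESeq2 called 14 genes, LAPTM4B among them. LAPTM4B had 51.7, 70.2, 521 and 1504 CPM at 0, 1, 3 and 6 h in A375/211. In A375 it had 213, 174, 510 and 320 CPM. Its level was thus lower in A375/211 at 0 and 1 h, close at 3 h and higher at 6 h, while total RNA showed no such gap, with 88.3 and 95.1 CPM in A375/211 and 81.6 and 105 CPM in A375. The slope was 0.86 (SE 0.12) in A375/211 and 0.16 (SE 0.12) in A375, a difference of 0.71 (edgeR adjusted p = 1, DESeq2 adjusted p = 0.0104) that was 0.39 without the A375 6 h library.

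The other 4 members with an unadjusted p under 0.05 in the slope difference were ATP6V0D2 (1.83), CTSK (-0.94), the cysteine protease CTSB (0.23) and ATP6V0D1 (-0.21), each with an edgeR adjusted p = 1. Those of ATP6V0D2 and CTSK rest on 3 and 6 counts in A375. Without the A375 0 h library the ATP6V0D2 value was 0.22, and without the A375 6 h library the CTSK value was 0.45, with the opposite sign. CTSB had 16.6, 22.6, 47.9 and 132 CPM over the chase in A375/211 and 18.0, 15.9, 26.4 and 50.8 CPM in A375. Its levels were close at 0 h and higher in A375/211 at the 3 later times.

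**Figure D2:**
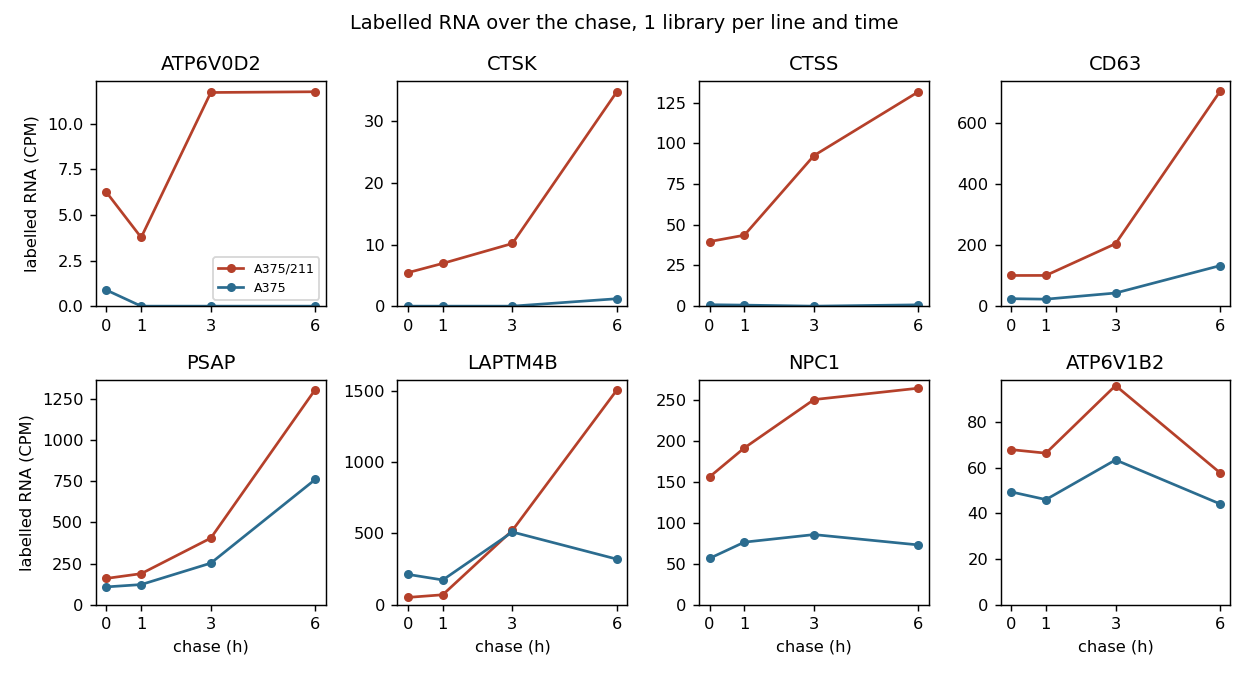
Labelled RNA (CPM on linear axes that start at 0) of 8 members at 0, 1, 3 and 6 h of chase in A375/211 and A375, with 1 library per point. CD63 and PSAP climb in both lines, LAPTM4B ends at 1504 CPM in A375/211 and 320 CPM in A375, ATP6V1B2 peaks at 3 h, and ATP6V0D2, CTSK and CTSS lie near 0 in A375.

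In total RNA few lysosomal genes passed between the lines, with 2 libraries per line. By edgeR's quasi-likelihood test 0 members were higher and 1 of 40, ATP6V0D2, was lower in A375/211. Of all 19258 genes tested, 0.171% were higher and 0.208% lower. The median log2 difference, A375/211 over A375, was -0.08 for the members and -0.003 for all genes. An unadjusted p under 0.05 was found for 5 members and for 2107 of all genes. Both A375/211 libraries lay above both A375 libraries for 4 members, CTSC, CTSS, LAMP2 and TFEB (20.7% of all genes). They lay below both for 8 members, ATP6V0D1, ATP6V0D2, CTSA, CTSD, CTSK, GAA, LAMP1 and LAPTM4A (20.3% of all genes).

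ATP6V0D2 is the d2 form of the V0 d subunit, known from osteoclasts and macrophages, beside the widely expressed ATP6V0D1. ATP6V0D2 (ENSG00000147614, chromosome 8, 85987323 to 86154225, plus strand, hg38) had 0.766 and 0.324 CPM of total RNA in A375/211 and 16.3 and 18.2 CPM in A375, from 26 and 10 counts in A375/211 and 331 and 524 in A375. Every A375/211 library was below every A375 library, a log2 difference of -4.96 (SE 0.45, edgeR adjusted p = 0.0472). With any 1 of the 4 libraries left out the difference was -5.71 to -4.48 and its adjusted p was 0.0509 to 0.104. Its sister ATP6V0D1 had 60.8 and 51.9 CPM in A375/211 and 61.4 and 66.4 CPM in A375 (log2 -0.18, SE 0.17, edgeR adjusted p = 0.820).

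CTSK had 7.10 and 5.82 CPM in A375/211 and 28.6 and 21.1 CPM in A375 (log2 -1.94, SE 0.25). It missed the threshold in edgeR (adjusted p = 0.0722) and passed in DESeq2 (adjusted p = 3.11e-07). CTSC, which activates granule serine proteases, had 277 and 282 CPM in A375/211 and 192 and 187 CPM in A375 (log2 0.56, SE 0.16, edgeR adjusted p = 0.288). CTSD had 79.4 and 60.1 CPM in A375/211 and 120 and 103 CPM in A375 (log2 -0.68, SE 0.21, edgeR adjusted p = 0.357). For these 3 proteases the lines did not overlap, but the difference did not pass.

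**Figure D3:**
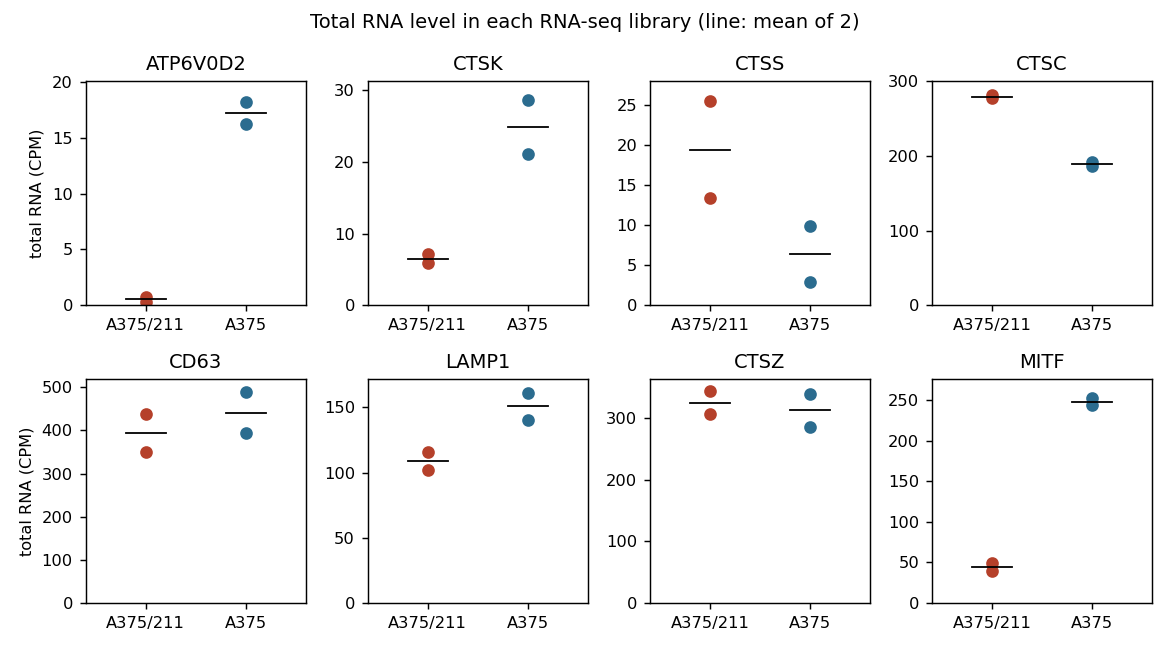
Total RNA (CPM, linear axes from 0) of 7 members and of MITF in each of the 2 RNA-seq libraries of A375/211 and of A375, with a line at the mean. ATP6V0D2, CTSK and MITF lie lower in A375/211 in both libraries, CTSS and CTSC lie higher, and CD63 and CTSZ overlap.

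Per kb of annotated exon, total RNA was highest for PSAP, at 317 ± 62.9 CPM per kb in A375/211 and 366 ± 55.3 in A375 (SD, n = 2 each). The tetraspanin CD63 followed with 163 ± 25.2 CPM per kb in A375/211 and 182 ± 27.4 in A375, and then ATP6V0E1 with 41.1 ± 10.9 in A375/211 and 43.2 ± 0.102 in A375. The lowest means over both lines were those of TFEB, with 0.348 ± 0.0158 CPM per kb in A375/211 and 0.283 ± 0.0688 in A375, the peptidase TPP1, with 1.36 ± 0.460 in A375/211 and 1.43 ± 0.580 in A375, and CTSK. The length is the union of all annotated exons, so genes with long rare isoforms are understated. None of PSAP, CD63, ATP6V0E1, TFEB and TPP1 passed between the lines in total RNA.

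In labelled RNA many lysosomal genes were higher in A375/211. With each time matched, 18 of 39 members were higher and 1, CTSZ, was lower (edgeR quasi-likelihood test). Among all genes 13.6% were higher and 12.3% lower. The median log2 difference was 0.49 for the members and -0.05 for all genes. A375/211 was higher at all 4 times for 20 members and lower at all 4 for 1 (22.9% and 25.3% of all genes). The 4 times stand in for replicates here, so the error is the spread of the difference over the chase. With glycolytic mRNAs held constant, which moved the median of all genes by -0.48, 9 members were higher and 7 lower. Scaled to the row BRIC, which moved it by -0.20, 9 were higher and 1 lower, and without the A375/211 3 h library 11 were higher.

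The proteases and the membrane proteins made up most of these calls, with 6 of 9 proteases higher and 1 lower, and 7 of 9 membrane and lipid transport proteins higher. Of the glycosidases, lipid hydrolases and activator 3 of 10 were higher, and of the V-ATPase 2 of 11, ATP6V0D2 and ATP6V1B2. The higher proteases were CTSS, CTSK, CTSC, TPP1 (log2 0.93), CTSA (0.79), which also protects lysosomal glycosidases, and CTSL (0.68). The higher membrane and transport proteins were CD63, NPC1 (1.55), LAMP2 (1.42), NPC2 (1.25), SCARB2 (0.61), a sorting receptor of the lysosomal membrane, LAPTM4A (0.40) and LAMP1 (0.38). The acid ceramidase ASAH1 (1.21), PSAP (0.66), the ganglioside hydrolase HEXA (0.54) and ATP6V1B2 (0.49) were higher as well. CTSC, CD63, NPC1, CTSS, LAMP2, CTSK, TPP1, ASAH1 and ATP6V0D2, and CTSZ in the other direction, passed under every alternative in which they were tested. The other 9 lost the call under at least 1 alternative, LAMP1 and HEXA among them whichever 1 library was left out.

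CD63, the tetraspanin of late endosomes, lysosomes and melanosomes, had 100, 101, 204 and 702 CPM of labelled RNA at 0, 1, 3 and 6 h in A375/211. In A375 it had 24.4, 22.8, 42.9 and 132 CPM. A375/211 was higher at every time by a similar factor, a log2 difference of 2.22 (SE 0.09, edgeR adjusted p = 8.02e-05). In total RNA CD63 had 437 and 351 CPM in A375/211 and 488 and 394 CPM in A375, and the libraries of the lines overlapped (log2 -0.16, SE 0.21, edgeR adjusted p = 0.884).

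CTSS, a cysteine protease best known from antigen-presenting cells, had 39.7, 43.6, 92.6 and 132 CPM of labelled RNA over the chase in A375/211 and 0.883, 0.634, 0 and 0.804 CPM in A375. These were 1441 summed counts in A375/211 and 10 in A375, a ratio of 158 with a 95% interval of 85.5 to 329 (exact conditional interval, scaled to library size, counting error only). In total RNA CTSS had 25.5 and 13.3 CPM in A375/211 and 9.93 and 2.92 CPM in A375, higher in both A375/211 libraries but not passing (log2 1.60, SE 0.66, edgeR adjusted p = 0.488).

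CTSK, the neighbour of CTSS on chromosome 1, had 5.44, 6.94, 10.2 and 34.8 CPM of labelled RNA over the chase in A375/211 and 0, 0, 0 and 1.21 CPM in A375. Summed counts were 256 in A375/211 and 6 in A375, a ratio of 46.7 (exact interval 21.2 to 128). ATP6V0D2 had 6.25, 3.77, 11.7 and 11.8 CPM in A375/211 and 0.883, 0, 0 and 0 CPM in A375, from 158 summed counts in A375/211 and 3 in A375, a ratio of 57.6 (exact interval 19.4 to 282). For both genes the labelled RNA was thus higher in A375/211 at every time, and total RNA was lower in both of its libraries. In A375, ATP6V0D2 had 331 and 524 counts of total RNA beside these 3 counts of labelled RNA.

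CTSZ, a carboxypeptidase, was the 1 member that was lower in labelled RNA. It had 20.9, 18.4, 35.0 and 79.9 CPM over the chase in A375/211 and 39.2, 38.7, 63.6 and 179 CPM in A375 (log2 -1.002, SE 0.11, edgeR adjusted p = 0.00163). A375/211 was lower at all 4 times. Its total RNA overlapped between the lines, with 344 and 306 CPM in A375/211 and 286 and 340 CPM in A375 (log2 0.06, SE 0.18, edgeR adjusted p = 0.966).

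The difference between the assays was itself tested, in 1 fit over the 12 libraries added after the values had been seen. The line difference in labelled RNA exceeded that in total RNA for 8 members and was below it for 1 (edgeR quasi-likelihood test, 3.02% and 2.19% of all genes). The 8 were ATP6V0D2 (log2 10.68), CTSK (7.69), CTSS (5.62), CD63 (2.38), CTSC (1.15), CTSA (1.08), LAMP2 (1.08) and LAMP1 (0.85), and the 1 was CTSZ (-1.06). The values of ATP6V0D2, CTSK and CTSS rest on 3, 6 and 10 labelled counts in A375 and depend on how such counts are fitted. With any 1 library left out the 8 became 4 to 11. The lowest count, 4, came without the 6 h library of either line or without A375/211 library b.

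**Figure D4:**
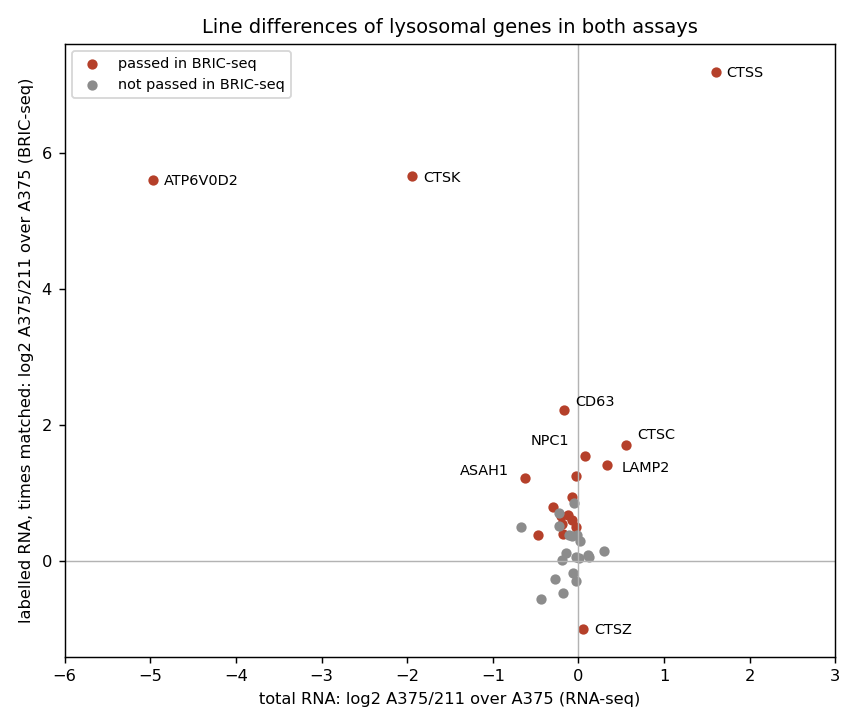
Log2 difference, A375/211 over A375, of 39 members in total RNA (horizontal) and labelled RNA with times matched (vertical), coloured by whether the labelled difference passed. ATP6V0D2 (-4.96 and 5.61) and CTSK (-1.94 and 5.66) stand at the upper left and CTSS (1.60 and 7.20) at the upper right, while most members lie near 0 in total RNA and between -1.002 and 2.22 in labelled RNA.

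Markers of other cells were read beside these genes, because CTSK, ATP6V0D2 and CTSS are also abundant in osteoclasts or myeloid cells. Of 4 osteoclast markers OCSTAMP and CALCR were at 0 in all libraries. The 4 summed to 11.8 to 23.6 CPM of total RNA in A375/211 and 85.5 to 86.2 CPM in A375, and to 1.36 to 9.56 CPM of labelled RNA in A375/211 and 0 to 2.41 CPM in A375. Most of the total RNA sums came from the acid phosphatase ACP5, itself a lysosomal enzyme. ACP5 had 21.3 and 10.7 CPM of total RNA in A375/211 and 85.1 and 85.0 CPM in A375 (log2 -2.41, SE 0.37, edgeR adjusted p = 0.0937). The remaining osteoclast marker, DCSTAMP, went the other way in total RNA (log2 1.165), which did not pass. DCSTAMP was at 0 in the labelled RNA of A375. Of 6 leukocyte markers PTPRC and AIF1 were at 0 in all libraries, and the 6 summed to 1.04 to 1.59 CPM of total RNA in A375/211 and 1.43 to 2.95 CPM in A375. In labelled RNA they summed to 6.80 to 51.5 CPM in A375/211 and 1.69 to 7.43 CPM in A375. Lysozyme, LYZ, a leukocyte marker that is also a lysosomal protein of myeloid cells, was higher in labelled RNA of A375/211 (log2 2.35, SE 0.22, edgeR adjusted p = 0.001) and had a log2 difference of -0.94 in total RNA, which did not pass. The 5 fibroblast markers summed to 25.8 to 26.9 CPM of total RNA in A375/211 and 26.1 to 61.3 CPM in A375. In labelled RNA they summed to 26.9 to 149 CPM in A375/211, where COL1A2 was at 0, and 2.33 to 14.5 CPM in A375, where DCN was at 0. The fibroblast marker LUM was higher in labelled RNA of A375/211 (log2 5.18, SE 0.50, edgeR adjusted p = 0.00118) and had a log2 difference of 1.30 in total RNA, which did not pass. The 4 fibroblast markers tested in total RNA went in both directions, with log2 differences from -6.499 to 4.241. Of these, 3 were above 0, and 0 passed, while 4 had an unadjusted p under 0.05 in edgeR (2107 of all 19258 genes). Of 5 keratinocyte markers KRT5, KRT1 and DSG3 were at 0 in all libraries. The 5 summed to 16.8 to 18.3 CPM of total RNA in A375/211 and 15.2 to 20.4 CPM in A375. KRT14 was detected in total RNA of A375/211 and was at 0 in that of A375. The 2 keratinocyte markers tested in total RNA had log2 differences of -0.05 and 6.695. Of these, 0 passed and 1 had an unadjusted p under 0.05. The part of the summed markers in the line differences was not tested.

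The amount of a mRNA caught by BrU at 0 h, set against its total RNA, varied widely among the members. By the mean of both lines, the ratio of labelled CPM at 0 h to mean total CPM was highest for TPP1, at 4.81 in A375/211 and 2.92 in A375, and for ATP6V0A1, a large V0 subunit, at 2.72 in A375/211 and 2.73 in A375, leaving aside ATP6V0D2, at 11.5 in A375/211 and 0.0512 in A375. TFEB was at 0 in both lines, and CTSK and MCOLN1 at 0 in A375. Among members with labelled counts at 0 h in both lines it was lowest for CTSD, at 0.0312 in A375/211 and 0.0185 in A375. Over 38 members the log2 ratio had a Spearman correlation of 0.60 with the uridine content of the transcript, and of 0.41 over 10782 coding genes. With GC content it was -0.55 over the members and -0.47 over coding genes. With transcript length it was 0.44 and 0.49, and with 3′ UTR length 0.45 and 0.40. Over coding genes, length and GC content thus went with the ratio more strongly than uridine. The 38 leave out TFEB, which was not tested in BRIC-seq, and GLA, which has no 3′ UTR length. At the ends of the uridine range of these 38 stood LAPTM4A, with 34.5% uridine and a ratio of 1.36 in A375/211 and 0.867 in A375, and the glycogen hydrolase GAA, with 18.0% uridine and a ratio of 0.0345 in A375/211 and 0.0772 in A375. Both assays count the same transcript, and points share their libraries, so these are descriptions without a test.

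TFEB was the regulator on the list and had 2.42 and 2.26 CPM of total RNA in A375/211 and 1.57 and 2.23 CPM in A375 (log2 0.29, SE 0.31, edgeR adjusted p = 0.844). In labelled RNA it had 0 counts in every A375/211 library and 3 in 1 A375 library, too few to test. TFEB and its relatives bind the sequence TCACGTGA, which holds the E-box core CACGTG. Promoters of 25 of the 40 members were matched by symbol to RefSeq windows of 250 bases before to 50 after the start site (GRCh38.p14), and both motifs, which read the same on both strands, were searched. TCACGTGA was in 5 of the 25 (20%) and in 283 of 27305 promoters (1.04%). CACGTG, which every TCACGTGA contains, was in 8 of 25 (32%) and in 2030 of all (7.43%). A match is a description of letters, not a binding site. CTSD and NEU1, a sialidase, hold the shorter motif and are not shown. For the other 6 the matched motif is in capitals with 20 bases on each side, and any further CACGTG in the stretch, as in CTSA, is left in lower case.
ATP6V0D1, chr16:67481190-67481237, minus strand: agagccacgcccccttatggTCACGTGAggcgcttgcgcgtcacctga
CTSA, chr20:45891289-45891336, plus strand: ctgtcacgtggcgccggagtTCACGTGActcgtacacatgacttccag
GAA, chr17:80101484-80101531, plus strand: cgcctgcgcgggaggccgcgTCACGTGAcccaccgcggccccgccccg
LAMP1, chr13:113297190-113297237, plus strand: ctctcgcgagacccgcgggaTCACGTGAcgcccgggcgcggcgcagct
MCOLN1, chr19:7522562-7522609, plus strand: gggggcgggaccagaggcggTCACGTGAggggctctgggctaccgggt
CD63, chr12:55729164-55729209, minus strand: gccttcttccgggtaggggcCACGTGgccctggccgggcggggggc

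Of the 8 members with a motif, CD63, CTSA and LAMP1 were higher in labelled RNA of A375/211, 3 of 8 against 18 of all 39 tested members and 13.6% of all genes, and the other 5 did not pass. In total RNA none of the 8 passed. The mean slope rose over the chase for all 8, as it did for 33 of all 39 tested members and 29.9% of all genes, with values of 0.28 for ATP6V0D1 to 0.53 for CTSD. Members with and without a motif were not tested against each other.

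Mature miR-211, the product of the overexpressed gene, was not itself counted in these libraries. Its RefSeq sequence, at chr15:31065095-31065116 on the minus strand (GRCh38.p14), is shown with the seed, bases 2 to 8, in capitals.
hsa-miR-211-5p: uUCCCUUUgucauccuucgccu
The reverse complement of that seed, AAAGGGA, was searched on the transcript strand in the 3′ UTR of each gene's canonical transcript (GENCODE 44). It was present in 3 of 39 members (7.69%) and in 3379 of 19559 genes (17.3%). ATP6V1C1 had 2 sites, and LAMP1 and MCOLN1 had 1 each, shown here in capitals within the transcript.
LAMP1: taagccttacAAAGGGAaagcctctgg
MCOLN1: gtgttgaataAAAGGGAaaataaatgt
LAMP1, a heavily glycosylated protein of the lysosomal membrane, had 116 and 102 CPM of total RNA in A375/211 and 161 and 140 CPM in A375, both A375/211 libraries being lower (log2 -0.47, SE 0.18, edgeR adjusted p = 0.453). In labelled RNA it had 32.1, 30.1, 71.2 and 204 CPM over the chase in A375/211 and 23.0, 26.9, 56.4 and 141 CPM in A375, higher in A375/211 at every time (log2 0.38, SE 0.10, edgeR adjusted p = 0.0406). With glycolytic mRNAs held constant that difference was -0.10. With any 1 library left out it was 0.33 to 0.46, and the call was lost each time. The total RNA of MCOLN1 overlapped between the lines, with 10.1 and 7.05 CPM in A375/211 and 10.1 and 7.69 CPM in A375. ATP6V1C1 passed in neither line difference (log2 -0.15 in total and 0.11 in labelled RNA). A seed match is not evidence that the microRNA binds there.

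Another 89 lysosomal genes, in 4 lists of hydrolases, membrane proteins, V-ATPase subunits, and sorting factors and regulators, were read in the same fits. In total RNA 0 of the 85 tested were higher and 1, MITF, was lower. MITF had 38.8 and 49.0 CPM in A375/211 and 253 and 244 CPM in A375 (log2 -2.50, SE 0.20, edgeR adjusted p = 0.0448). With any 1 library left out its adjusted p was 0.0789 to 0.109, so the call was lost each time. In labelled RNA 28 of 74 were higher and 3 lower (13.6% and 12.3% of all genes), with a median log2 difference of 0.36. Hydrolases were 13 of these 28, among them the mannosidase MANBA (1.26) and the folate hydrolase GGH (0.79). The macrophage and endosome glycoprotein CD68 (2.53), the melanosomal glycoprotein GPNMB (1.41), the chloride transporter partner OSTM1 (1.12) and the phosphotransferase GNPTAB (1.17), which tags hydrolases for the lysosome, were higher too. The 3 that were lower were the V1 subunits ATP6V1G1 (-0.76) and ATP6V1E2 (-0.85), and RRAGA (-0.75), a GTPase of the mTORC1 nutrient sensor.

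ATP6V0A4, a V0 subunit best known from kidney and inner ear, had 15.8, 15.5, 25.3 and 56.4 CPM of labelled RNA over the chase in A375/211 and 0, 0, 1.10 and 0.603 CPM in A375 (log2 5.76, SE 0.50, edgeR adjusted p = 0.000858). Its total RNA was 9.54 and 6.63 CPM in A375/211 and 15.9 and 12.8 CPM in A375 (log2 -0.83, SE 0.27, edgeR adjusted p = 0.378). Like ATP6V0D2 it lay near 0 in the labelled RNA of A375 and was lower in both total RNA libraries of A375/211. Over the chase, 46 of the 74 genes rose and 7 fell (29.9% and 34.4% of all genes), with a median slope of 0.30. Hydrolases rose in 22 of 24 cases (median 0.41) and V-ATPase subunits and accessory proteins in 8 of 11 (median 0.33). Membrane proteins and transporters rose in 11 of 22 cases and fell in 2 (median 0.18). Of the 17 sorting factors and regulators 5 rose and 5 fell (median 0.02), MITF among those falling (-0.37, SE 0.06).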

How the data were processed

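The authors deposited raw counts per gene, 1 table for RNA-seq and 1 for BRIC-seq. Per the submitters' processing notes, HISAT2 2.1.0 and StringTie were used. Libraries came from a stranded total RNA kit, per the labels' protocols. The genome build is given as hg19 in the notes and hg38 in the design text. The sources used here state neither the strand setting nor how multi-mapping reads were treated, so overlapping genes and close paralogs are uncertain. Symbols, coordinates and exon lengths are from GENCODE 44 (hg38), which held 56558 of the 60675 IDs. A row named BRIC (at most 0.00122% of counts) stayed out of library sizes and tests.

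Counts were tested with edgeR 4.0.16 in R 4.3.3 (quasi-likelihood F test, TMM, filterByExpr by line with minimum count 10 and minimum total 15, Benjamini-Hochberg adjustment over all genes, threshold 0.05). The terms were line in RNA-seq (2 residual degrees of freedom), line with time as a factor in BRIC-seq (3), hours with line as covariate for the mean slope (5), and a slope per line for the slope difference (4). CPM uses TMM-scaled library sizes. On simulated data with 200 changed genes the test recovered 97.5% of log2 changes of 3 in RNA-seq, 99.5% in the BRIC-seq line difference, 96% of mean slopes of 0.5 and 43.5% of slope differences of 0.5. In the same order, 27, 12, 7 and 5 unchanged genes were called. The changed genes were drawn from well counted genes only. Recovery of smaller changes, and of members with few counts, was therefore not measured. Each standard error is the size of the log2 estimate over the root of its F statistic. Alternatives were other scalings, filters, DESeq2 1.42.0 and leaving out libraries. Genes were named by a rule: members that passed a line or slope difference, the 4 smallest p-values in each, the 5 steepest and 5 least steep mean slopes, the 3 highest and lowest levels per kb, TFEB, and up to 4 passing genes of each further list, some of which are not reported here. NAGLU, ATP6V0D1, ATP6V0A1, GAA and ACP5 were described beyond it, after their values were seen. The members and lists were chosen with earlier results of these data known.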

Additional observations from a re-analysis of the deposited data

Results flagged for a closer look

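For 9 members the difference between the lines was not the same in labelled and in total RNA (edgeR quasi-likelihood test of the difference between the assays, adjusted p under 0.05). The log2 difference of A375/211 over A375 in labelled RNA, minus that in total RNA, was 10.68 for ATP6V0D2 and 7.69 for CTSK, which had opposite signs in the assays, and 5.62 for CTSS, which had the same sign in both. It was 2.38 for CD63, 1.15 for CTSC, 1.08 for LAMP2, 1.08 for CTSA, 0.85 for LAMP1 and -1.06 for CTSZ. The assays come from separate libraries and differ in depth and in the RNA they catch, and the part of either in these differences was not tested.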

How the results depend on the processing

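Direction and calls of the slopes depended on the scaling. With glycolytic mRNAs held constant, 0 members rose and 19 fell in the mean slope. In A375/211 1 rose and 13 fell, and in A375 1 rose and 12 fell. Of all genes, 8 rose and 12098 fell in the mean slope, 8 and 10937 in A375/211, and 5 and 10844 in A375. Scaled to the row BRIC, an alternative chosen after seeing the data, the members rising and falling were 0 and 34, 0 and 33, and 0 and 34. For all genes these counts were 1 and 13450, 2 and 13112, and 1 and 12541. Total-count scaling gave 1 falling member in the mean slope, against 7269 falling among all genes. In the labelled line difference, glycolytic mRNAs held constant left 9 higher and 7 lower, with LAPTM4A at -0.08 and LAMP1 at -0.10, and the row BRIC left 9 higher. In RNA-seq, DESeq2, no filter and the replicate block each gave 2 lower members, ATP6V0D2 and CTSK. The block pairs libraries a and b across the lines. The deviations of these pairs correlated at 0.24 over genes, but 2 pairs that share only a letter do not show a pairing. DESeq2 called 1 member in the slope difference.

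With 1 library left out in turn, 0 members were lower in RNA-seq each time, 11 to 16 were higher in labelled RNA, 0 to 30 rose in A375/211, 0 to 31 rose and 0 to 1 fell in A375, and the assay difference had 4 to 11 higher and 0 to 1 lower. Of all genes, 0 to 2946 rose in A375/211, and 0 to 3475 rose and 0 to 3400 fell in A375. The slope difference of CTSK was then -1.15 to 0.45. ATP6V0D2, the 1 member falling in A375, lost that call (0 falling) under DESeq2, without both 0 h libraries, with a mean CPM of at least 5 and without a filter. The cause of these changes was not tested, except that fewer libraries leave fewer degrees of freedom. With 1 library per line and time and 0 to 26 counts for several members at 0 h, low labelled levels are poorly measured.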

Other observations

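Some marker genes outside the lysosomal lists also had line differences of opposite sign in the assays. The melanosomal fibril protein PMEL had a log2 difference, A375/211 over A375, of 2.56 in labelled RNA and -1.51 in total RNA, and the pigment enzyme DCT had 2.05 in labelled and -0.29 in total RNA. The transcription factor SOX10 had -1.49 in labelled and 0.55 in total RNA. The edgeR quasi-likelihood test of the difference between the assays passed for PMEL (adjusted p = 0.0242), DCT (adjusted p = 0.0229) and SOX10 (adjusted p = 0.0362). LYZ (2.35 in labelled and -0.94 in total RNA) passed the same test (adjusted p = 0.0134), as did LUM (adjusted p = 0.0150), whose differences were both positive (5.18 in labelled and 1.30 in total RNA). These marker genes were chosen after their values were seen. Over 10603 coding genes the line differences of the assays had a Spearman correlation of 0.25, and over 38 members -0.07. The chase slopes of the lines correlated at 0.89 over 10782 coding genes and 0.57 over 38 members. These correlations are across genes, which share libraries and are not independent replicates.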
